A study of Mus musculus with 3 samples.

Results

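The genes described here are 7 genes by which the intestine takes up, stores and exports iron, namely Cybrd1, Slc11a2, Fth1, Ftl1, Slc40a1, Heph and Tfrc. They were chosen by symbol, and all 7 were found once among the 31053 genes of the files. The data are single-cell RNA counts from the small intestine of wild-type male C57BL/6N mice aged 12 weeks. Cells of 3 mice were pooled, propidium iodide-negative live cells were sorted, and a single library was prepared per segment (duodenum, jejunum, ileum). A segment is thus represented by 1 library of pooled mice, and a difference between segments cannot be told apart from a difference between libraries.

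Dietary iron is absorbed mainly in the duodenum. At the apical membrane of enterocytes, the ferric reductase Dcytb (Cybrd1) reduces ferric to ferrous iron, and the divalent metal transporter DMT1 (Slc11a2) carries it into the cell. Iron that is not passed on is stored in ferritin, built from a heavy chain with ferroxidase activity (Fth1) and a light chain (Ftl1). Ferroportin (Slc40a1) exports iron across the basolateral membrane, where the membrane-bound ferroxidase hephaestin (Heph) oxidises it for binding to transferrin. The transferrin receptor (Tfrc) imports transferrin-bound iron from the blood side and is best known from dividing cells. Several of these mRNAs carry an iron-responsive element, a short hairpin that iron regulatory proteins bind when iron is scarce, which blocks translation when the hairpin lies in the 5′ untranslated region and stabilises the mRNA when it lies in the 3′ untranslated region.

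On GRCm38, Cybrd1 (ENSMUSG00000027015) lies at chr2:71117923-71142926 and Slc11a2 (ENSMUSG00000023030) at chr15:100387898-100425072. The ferritin genes lie at chr19:9980598-9985098 (Fth1, ENSMUSG00000024661) and chr7:45457944-45459884 (Ftl1, ENSMUSG00000050708). Slc40a1 (ENSMUSG00000025993) is found at chr1:45908068-45926523, Heph (ENSMUSG00000031209) at chrX:96455359-96574485 and Tfrc (ENSMUSG00000022797) at chr16:32608920-32632794. Slc11a2, Ftl1 and Slc40a1 are on the minus strand and the other 4 on the plus strand.

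The hairpin letters are shown because some of the genes compared below carry them, although the single-cell reads do not measure their use. GENCODE M21 transcripts were searched on the sense strand for 29-base windows with the loop letters CAGTGN, a C set 5 bases before the loop, and 5 stem pairs next to the loop, G-T pairs included. All 5 pairs were found in Slc40a1, Fth1, Ftl1 and Tfrc, and in 294 of 21877 coding genes (1.34%). They lay in 1 of 4 coding transcripts of Slc40a1, 4 of 5 of Fth1, 1 of 2 of Ftl1 and 1 of 3 of Tfrc. The matches are given 5′ to 3′ with the loop in capitals, in the order ferroportin, ferritin heavy chain, ferritin light chain and the 4 windows of the transferrin receptor.
Slc40a1, 5′ untranslated region, chr1:45925465-45925493, minus strand: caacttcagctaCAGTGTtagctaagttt
Fth1, 5′ untranslated region, chr19:9982732-9982760, plus strand: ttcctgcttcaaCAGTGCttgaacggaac
Ftl1, 5′ untranslated region, chr7:45459779-45459807, minus strand: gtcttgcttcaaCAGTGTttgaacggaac
Tfrc, 3′ untranslated region, chr16:32631219-32631247, plus strand: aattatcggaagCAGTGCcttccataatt
Tfrc, 3′ untranslated region, chr16:32631598-32631626, plus strand: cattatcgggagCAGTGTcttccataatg
Tfrc, 3′ untranslated region, chr16:32631663-32631691, plus strand: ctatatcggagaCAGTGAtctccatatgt
Tfrc, 3′ untranslated region, chr16:32631710-32631738, plus strand: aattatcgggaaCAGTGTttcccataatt
Slc11a2 had a window with 4 of the 5 pairs, in the 3′ untranslated region of 1 of its 6 coding transcripts. It is shown because it is the only match in this importer.
Slc11a2, 3′ untranslated region, chr15:100395153-100395181, minus strand: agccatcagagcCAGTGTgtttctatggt
Windows with at least 4 pairs were found in 2340 coding genes (10.7%), among them Heph, whose window lies in the coding part. Cybrd1 had none under this pattern. A match is a description of letters, and an absent match says nothing about regulation.

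After filtering, 4255 duodenal, 4360 jejunal and 8071 ileal cells were kept, with a median of 12424, 11737 and 5536 UMIs per cell (unique molecular identifiers, which count captured mRNA molecules). Clusters were named from marker genes, and each name stands for a cluster that resembles the cell type. Enterocytes made up 3183, 3261 and 3880 cells of the 3 segments, and early enterocytes of the villus bottom 408, 297 and 430. The samples are labelled as intestinal epithelial cells, and by the study's methods the sorted suspension also held immune cells of the epithelium. Among the kept cells were 1637 T cells, 610 B cells, 87 IgA-producing B cells and 26 macrophages, with 1407 of the T cells in the ileum. Levels below are a gene's UMIs per 10000 UMIs, summed over cells, with the exact 95% Poisson interval in parentheses, which covers counting error only.

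RNA from enterocytes was also found in other cells. In the 65 duodenal T cells the median level of 13 enterocyte markers was 28.3% of that in enterocytes (between 20.6% and 36.6%). Of the iron genes, Cybrd1 stood at 11.2%, Fth1 at 34.7%, Slc40a1 at 37.2%, Heph at 41.0%, Ftl1 at 42.8% and Slc11a2 at 52.7% of theirs, and Tfrc, at 554%, was higher in T cells. The T cells had a median of 2004 UMIs, against 12077 in duodenal enterocytes. In jejunal and ileal T cells the median of the markers was 10.0% and 13.4%, while Fth1 stood at 54.3% and 74.96%, Ftl1 at 72.8% and 69.7% and Slc11a2 at 61.6% and 103% of the enterocyte level. Levels of Cybrd1, Slc40a1 and Heph in duodenal T cells lie below or near the range of the markers and are not read as expression.

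In enterocytes, the genes of the apical entry step, the exporter and the ferritin heavy chain were far higher in the duodenum than in the other segments, while hephaestin, the ferritin light chain and the transferrin receptor were less than 2-fold apart between the duodenum and either other segment. Of the 7 genes, 4 were at least 2-fold higher in the duodenum than in the jejunum (Cybrd1, Slc11a2, Fth1 and Slc40a1), compared with 7.96% of the genes that reached a level of 0.1 in either segment. The same 4 were at least 2-fold higher in the duodenum than in the ileum, where 13.4% of such genes were. None of the 7 was at least 2-fold lower in the duodenum, compared with 4.52% of genes against the jejunum and 11.4% against the ileum. The name duodenal thus holds by this rule of size for 4 of the 7 genes and not for Heph, Ftl1 and Tfrc. No test is possible with 1 library per segment.

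Cybrd1, the reductase, had a level of 3.53 (3.48 to 3.59; 14144 UMIs) in duodenal enterocytes, 0.000463 (2 UMIs) in the jejunum and 0.00809 (26 UMIs) in the ileum. The duodenal level was 7635 times that of the jejunum, with a log2 ratio of 12.90 (11.04 to 15.94) that rests on 2 UMIs, and 436.6 times that of the ileum. All 26 ileal UMIs came from 1 cell of 5772 UMIs, which also held 3 UMIs of Slc40a1 and whose barcode occurred in no other library. Without this cell 0 UMIs were left in the ileum, with an interval that ends at a level of 0.00115. Outside the duodenum Cybrd1 was therefore at the detection limit in enterocytes.

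Slc40a1, the exporter, had a level of 3.79 (3.73 to 3.85; 15170 UMIs) in the duodenum, 0.00208 (0.000952 to 0.00395; 9 UMIs) in the jejunum and 0.0728 (0.0638 to 0.0828; 234 UMIs) in the ileum. The ratio of duodenum to jejunum was 1819.8 (log2 10.83, 9.90 to 11.96) and that of duodenum to ileum 52.0 (log2 5.70, 5.51 to 5.89). The order was therefore duodenum, ileum, jejunum, with the jejunum 35.0-fold below the ileum and no overlap of the intervals. The ileal UMIs were spread over 186 of 3880 cells, with at most 6 in a cell.

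Slc11a2, the importer, stood at 0.752 (0.725 to 0.779) in the duodenum, 0.144 (0.133 to 0.156) in the jejunum and 0.148 (0.135 to 0.162) in the ileum. Its duodenal level was 5.22-fold that of the jejunum and 5.08-fold that of the ileum, and the jejunum and the ileum did not differ beyond counting error. The importer was thus still counted in 494 jejunal and 402 ileal enterocytes, compared with 8 and 186 for Slc40a1 and 2 and 1 for Cybrd1.

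Fth1, the ferritin heavy chain, had levels of 166, 27.5 and 23.3 along the 3 segments, so that the duodenum was 6.03-fold and 7.10-fold higher. Ftl1, the light chain, had levels of 17.99, 10.97 and 11.7, which is 1.64-fold and 1.54-fold higher in the duodenum. The heavy and light chain mRNAs therefore did not move in parallel between segments. Counts of Ftl1 can be shared with its near-identical pseudogene Ftl1-ps1, to which 1801 enterocyte UMIs were assigned.

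Heph, the ferroxidase of the export step, stood at 2.26 (2.21 to 2.30), 1.27 (1.23 to 1.30) and 1.54 (1.499 to 1.59) in duodenum, jejunum and ileum, a duodenal excess of 1.78-fold and 1.46-fold. Tfrc was low in enterocytes of all segments, at 0.0397, 0.0255 and 0.0542. It was 2.13-fold lower in the jejunum than in the ileum, and so were Slc40a1 and Cybrd1 by more, which makes 3 of 7 genes at least 2-fold lower in the jejunum, beside 7.96% of the genes that reached a level of 0.1. The ileal level of Cybrd1 comes from the 1 cell described above, so its place among the 3 rests on that cell. These 3 lay below that level in both segments, and 0 of 7 were at least 2-fold higher in the jejunum, beside 4.57%.

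The share of mitochondrial UMIs moved with the segment, at a median of 28.8% in duodenal, 28.9% in jejunal and 11.9% in ileal enterocytes. Its part in the differences to the ileum was not tested further than by leaving out these UMIs or the cells with more than 20% of them. Per 10000 other UMIs, Heph stood at 3.11, 1.74 and 1.79, so that the lower level of the jejunum against the ileum shrank to a log2 ratio of -0.04, while the 4 genes of the duodenum kept their 2-fold excess. Tfrc (jejunum 0.0349, ileum 0.0628 on this scale) no longer met the 2-fold rule. With cells of at most 20% mitochondrial UMIs the log2 ratio of Tfrc between jejunum and ileum was -0.58 instead of -1.09, which is under the 2-fold rule.

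**Figure D1:**
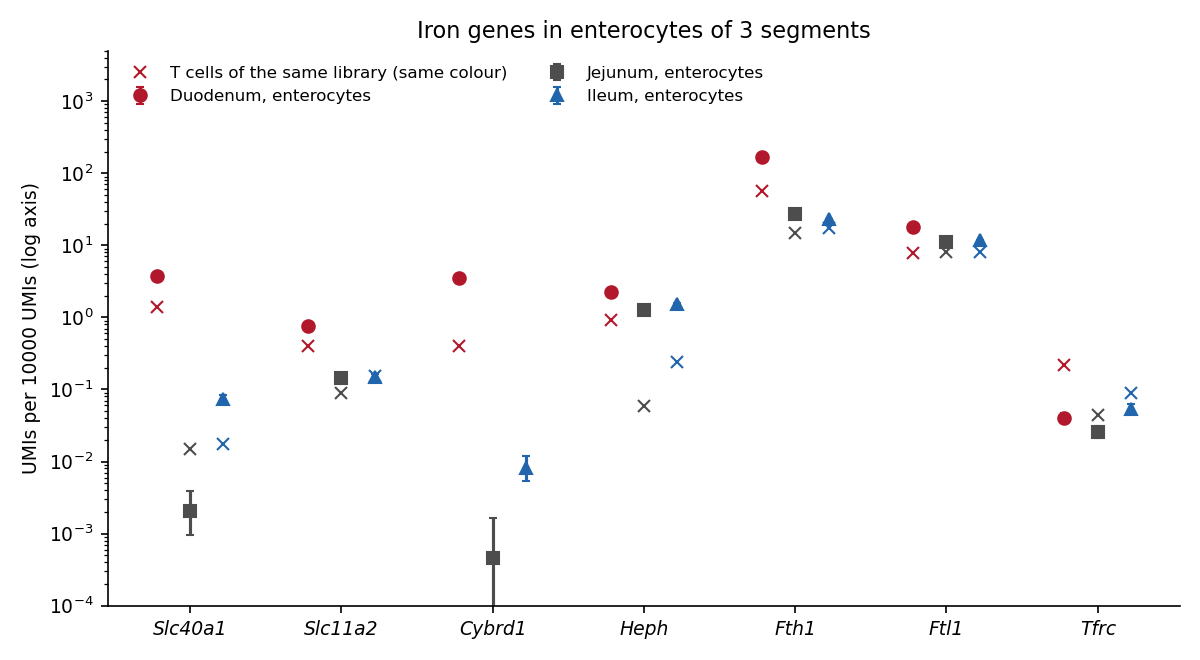
UMIs per 10000 UMIs (log axis) of the 7 iron genes in enterocytes of the duodenum (circles), jejunum (squares) and ileum (triangles), with exact 95% Poisson intervals, the lowest of which leaves the axis, and T cells of each library (crosses, not drawn where it is 0). Cybrd1 and Slc40a1 span more than 3 powers of 10 between segments, while Heph, Ftl1 and Tfrc stay close together.

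At the level of single cells, 57.0% of duodenal enterocytes held a UMI of Slc40a1, 38.7% of Cybrd1, 37.6% of Slc11a2 and 80.6% of Heph. In the 65 duodenal T cells the shares were 13.8%, 7.69%, 12.3% and 16.9% at the lower depth given above. With each cell thinned to 800 UMIs, the share with Slc40a1 was 20.2% in enterocytes and 4.62% in T cells. Among duodenal enterocytes thinned to 5000 UMIs, the 10th percentile, median and 90th percentile were 17, 59 and 142.6 UMIs for Fth1 and 0, 1 and 6 for Slc40a1. Both genes thus varied widely among cells of the same class.

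Duodenal enterocytes that held the exporter also more often held the reductase and the importer. After thinning to 5000 UMIs, which left out 328 shallower cells, 1434 of 2855 cells (50.2%) had a UMI of Slc40a1. Of these, 54.7% had a UMI of Cybrd1, compared with 7.95% of the 1421 cells without Slc40a1. For Slc11a2 the shares were 33.2% and 12.0%, and for Heph 70.2% and 55.9%. All 4 genes were found in 202 cells (7.08%) and none of the 4 in 496 (17.4%).

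The relation was graded. In cells with 0, 1, 2 to 4 and 5 or more UMIs of Slc40a1 (1421, 311, 682 and 441 cells), the share with Cybrd1 was 7.95%, 37.0%, 53.1% and 69.8%. The mean of Fth1 in the same groups was 51.8, 75.4, 101 and 102 UMIs per 5000, and that of Ftl1 was 7.14, 7.88, 9.69 and 11.2. Ferritin heavy chain mRNA was thus 1.84-fold and light chain mRNA 1.37-fold higher in cells with the exporter. The median depth before thinning lay between 12326 and 13708 UMIs in the 4 groups.

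The same direction was seen within each of the 8 clusters of duodenal enterocytes for Cybrd1 and Fth1. For Slc11a2 and Heph it was reversed in cluster 6 (37 cells), with 0% against 10.3% and 25% against 51.7%, and in cluster 10 Heph was 80.6% against 80.0%. Slc40a1 was held by 21.6% of the cells in cluster 6 and by 87.8% of the 41 cells in cluster 10. The shares of these clusters, also those for Cybrd1 and the means of Fth1, thus rest on few cells. In the largest, cluster 1 with 888 cells, 45.6% of cells with Slc40a1 and 3.15% of those without held Cybrd1. In cluster 7, led by the villus tip genes Nt5e and Ada, the shares were 91.1% and 32.5%. These are shares of cells of 1 library from 3 pooled mice, so that mice and places along the duodenum cannot be told apart from cell states, and no test was made.

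**Figure D2:**
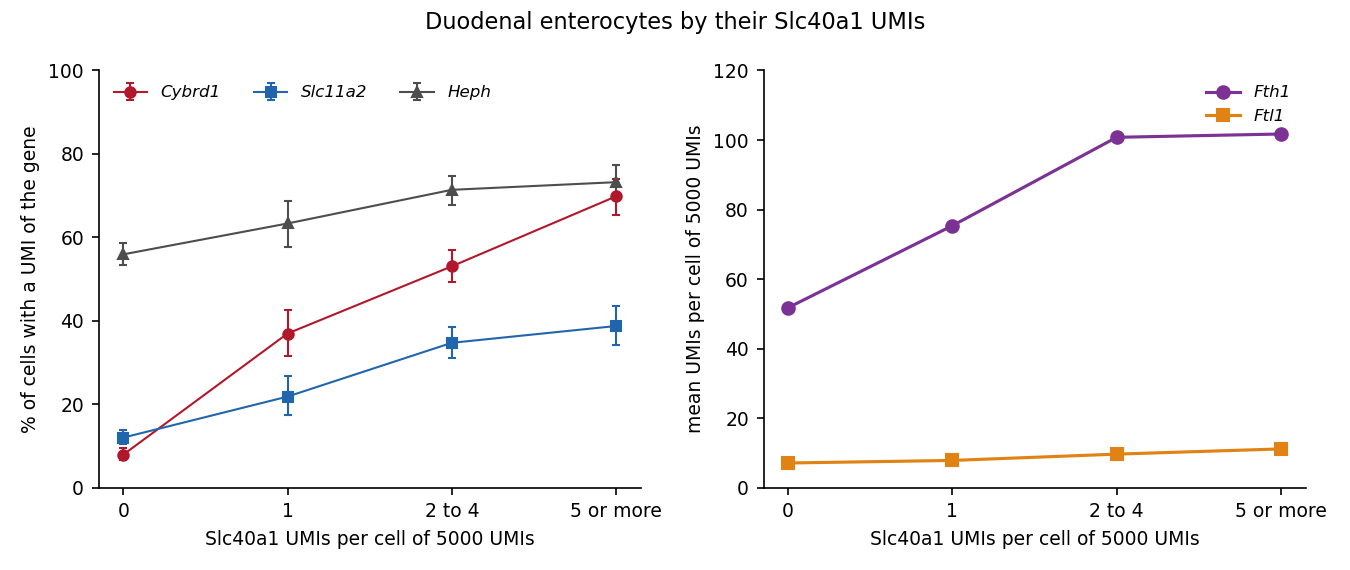
Duodenal enterocytes thinned to 5000 UMIs and grouped by their UMIs of Slc40a1, with the percent of cells that hold a UMI of Cybrd1, Slc11a2 or Heph and exact 95% binomial intervals (left) and the mean UMIs of Fth1 and Ftl1 per cell (right). Cybrd1 climbs from 7.95% to 69.8% across the groups and Fth1 from 51.8 to 102 UMIs.

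Clusters of duodenal enterocytes differed in which genes led. Cluster 10 (41 duodenal cells, led by Cpn1 and Tmigd1) had the highest levels of Slc40a1 (9.39), Cybrd1 (13.5), Heph (3.62) and Fth1 (262). Cluster 7 (222 cells) combined a high level of Cybrd1 (11.8) with low levels of Slc40a1 (1.86) and of Slc11a2 (0.0479). Cluster 3 (821 cells), which Fabp1 and Fbp1 lead, had the highest Slc11a2 (1.202) and an Fth1 level of 246. The reductase and the importer thus had their highest levels in different clusters of the same segment. Cell by cell, the reductase was still found more often in cells with the importer than in cells without it. Among duodenal enterocytes thinned to 5000 UMIs, 48.1% of cells with Slc11a2 and 26.6% of those without it held Cybrd1.

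Early enterocytes carried the exporter in the ileum as well. The level of Slc40a1 in early enterocytes was 1.95 (1.86 to 2.04) in the duodenum, 0.0465 (0.0327 to 0.0641) in the jejunum and 0.544 (0.499 to 0.593) in the ileum. In the ileum 538 UMIs were spread over 200 of 430 cells (46.5%), and the duodenal level was 3.57-fold higher than the ileal one, compared with 52.0-fold in enterocytes. In the jejunum 20 of the 37 UMIs came from 1 cell, without which the level was 0.0214. Cybrd1 stood at 0.439 in duodenal early enterocytes and at 0 UMIs in the 297 jejunal and 430 ileal ones, with intervals that end at 0.00463 and 0.00373. Fth1 stood at 175, 64.7 and 30.9 in the 3 segments and Slc11a2 at 0.937, 0.279 and 0.305.

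Enterocytes were compared with other cell classes over the 3 libraries with edgeR's quasi-likelihood test on UMIs summed per library and class, with the library as blocking factor and p-values adjusted by Benjamini-Hochberg over all 12448 genes tested. All 7 genes passed the filter on low counts, Cybrd1 only through the duodenal sums where it is high. Its calls are therefore no result over 3 libraries, and it is left out of the counts below and described by its duodenal levels. The p-values rest on how far the differences between classes vary over the 3 libraries, which are also 3 segments. The error is estimated over all classes summed, after the library block. A gene whose class difference is found in 1 segment alone can thus have a large error.

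Against early enterocytes, 1 of the 6 genes was higher in enterocytes, where 22.2% of all genes were, and 1 was lower, where 19.6% were. Cybrd1 stood at 3.53 against 0.439 in the duodenum. Heph was higher in 3 of 3 libraries (2.26 against 1.04, 1.27 against 1.14 and 1.54 against 1.05 in duodenum, jejunum and ileum), by 0.92 on the log2 scale (SE 0.31, edgeR adjusted p = 0.0175). Tfrc was lower in 3 of 3 libraries, with 0.0397 against 0.679, 0.0255 against 0.535 and 0.0542 against 0.907, a log2 fold change of -3.84 (SE 0.28, edgeR adjusted p = 5.05e-10).

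The other 4 genes did not pass this test. Slc40a1 had a log2 fold change of -1.16 (SE 0.67, edgeR adjusted p = 0.172), being higher in enterocytes of the duodenum and lower in those of the jejunum and the ileum. Without the duodenum it was -2.89 (edgeR adjusted p = 0.000665). Heph lost its call without the duodenum (edgeR adjusted p = 0.094) and without the ileum (edgeR adjusted p = 0.0849). For Slc11a2, Fth1 and Ftl1 the log2 fold changes were -0.40, -0.22 and 0.51.

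Against stem and proliferating crypt cells (67, 45 and 85 cells), 4 of the 6 genes were higher in enterocytes, beside 32.3% of all genes, and 1 was lower, beside 31.9%. Heph was 0.283, 0.183 and 0.299 in crypt cells of duodenum, jejunum and ileum and higher in enterocytes of each library, with a log2 fold change of 3.48 (SE 0.36, edgeR adjusted p = 6.55e-09). Ftl1 rose from 6.63, 7.31 and 8.97, by 1.61 (SE 0.30, edgeR adjusted p = 4.7e-05). Fth1 was higher by 1.40 and Slc11a2 by 1.32, both in 2 of 3 libraries, and Cybrd1 stood at 3.53 against 0.355 in the duodenum. Tfrc was 1.41, 1.18 and 1.31 in crypt cells, the highest of the named classes in each library, and fell by 4.26 on the log2 scale in enterocytes (SE 0.29, edgeR adjusted p = 5.34e-12). Slc40a1 was 3.79 against 0.473 in the duodenum, with a log2 fold change of 1.62 (edgeR adjusted p = 0.108) that turned to -0.78 without the duodenum.

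Against goblet cells, the mucus-producing class, 4 of the 6 genes were higher in enterocytes (22.2% of all genes) and 0 were lower (18.1%). Fth1 was higher in 3 of 3 libraries, with 37.4, 11.6 and 10.2 in goblet cells, by 1.65 (SE 0.33, edgeR adjusted p = 0.000223). Heph was higher by 1.30, Slc11a2 by 1.07 and Slc40a1 by 2.09 (edgeR adjusted p = 0.0393), and Cybrd1 stood at 3.53 against 0.219 in the duodenum. Without the duodenum the value for Slc40a1 was 0.65 (edgeR adjusted p = 0.586), and for Slc11a2 0.83 (edgeR adjusted p = 0.0506). Ftl1, at 11.5, 7.87 and 8.84 in goblet cells, and Tfrc did not pass the test.

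Tuft cells, chemosensory cells of the epithelium, shared part of the set. Heph stood at 2.00, 1.45 and 1.04 in tuft cells of the 3 segments and Cybrd1 at 1.01 in the duodenum. Both were next to enterocytes among the named classes of the duodenum. The 60 UMIs of Cybrd1 lay in 7 of the 47 duodenal tuft cells, and the part of doublets or background RNA in them was not tested. Ftl1 was higher in tuft cells than in enterocytes of each library, with 35.6, 15.4 and 11.9 against 17.99, 10.97 and 11.7, and the fitted log2 fold change was 0.05 (edgeR adjusted p = 0.918), which turned negative under 6 of 12 alternatives. By the test 4 of the 6 genes were higher in enterocytes (25.1% of all genes), among them Slc40a1 by 2.83, and Tfrc was lower (23.0%), by -1.06 (SE 0.38, edgeR adjusted p = 0.0218). Slc40a1 had 28, 0 and 1 UMIs in tuft cells of duodenum, jejunum and ileum, and its call was not kept under all of the alternatives. The firmest was Slc11a2, with 0.186, 0.0522 and 0.0797 in tuft cells and a log2 fold change of 2.10 (SE 0.34, edgeR adjusted p = 1.01e-05). Fth1 was called higher (log2 0.81, edgeR adjusted p = 0.0414) although its level per 10000 was higher in 1 of 3 libraries only, and its call and that of Heph (log2 0.82, edgeR adjusted p = 0.036) were lost with RLE size factors (edgeR adjusted p = 0.138 and 0.147).

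Against enteroendocrine cells (EECs, the hormone-producing class), 5 of the 6 genes were higher in enterocytes (27.3% of all genes) and 0 lower (28.2%). Heph was higher by 2.84 (SE 0.37, edgeR adjusted p = 4.01e-07), Fth1 by 2.37 (SE 0.34, edgeR adjusted p = 1.68e-06) and Slc11a2 by 2.10 (SE 0.35, edgeR adjusted p = 1.33e-05), each in 3 of 3 libraries. For Slc11a2 the jejunal levels were close, at 0.144 in enterocytes and 0.136 (4 UMIs) in EECs. Ftl1 was higher by 0.99, although its levels were close. They were 17.99, 10.97 and 11.7 in enterocytes and 16.6, 9.70 and 10.2 in EECs. The log2 fold change of Ftl1 ranged from 0.15 to 1.31 over the alternatives, and its call was not kept under all of them. Cybrd1 stood at 3.53 against 0.0633 in the duodenum. Slc40a1 was called higher (log2 2.93, edgeR adjusted p = 0.0205), but was higher in the duodenum only, and without it the value was -0.36 (edgeR adjusted p = 0.774).

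Against T cells 5 of the 6 genes were higher in enterocytes (33.1% of all genes) and 0 lower (31.5%). Heph was higher by 3.39 (SE 0.38, edgeR adjusted p = 1.6e-08), Fth1 by 1.96 and Ftl1 by 1.69, each in 3 of 3 libraries. Slc40a1 was higher by 2.19 (edgeR adjusted p = 0.0237), a call lost without the ileum (edgeR adjusted p = 0.206). The T cell levels contain the background RNA given above. Tfrc did not pass the test against T cells, EECs or goblet cells.

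**Figure D3:**
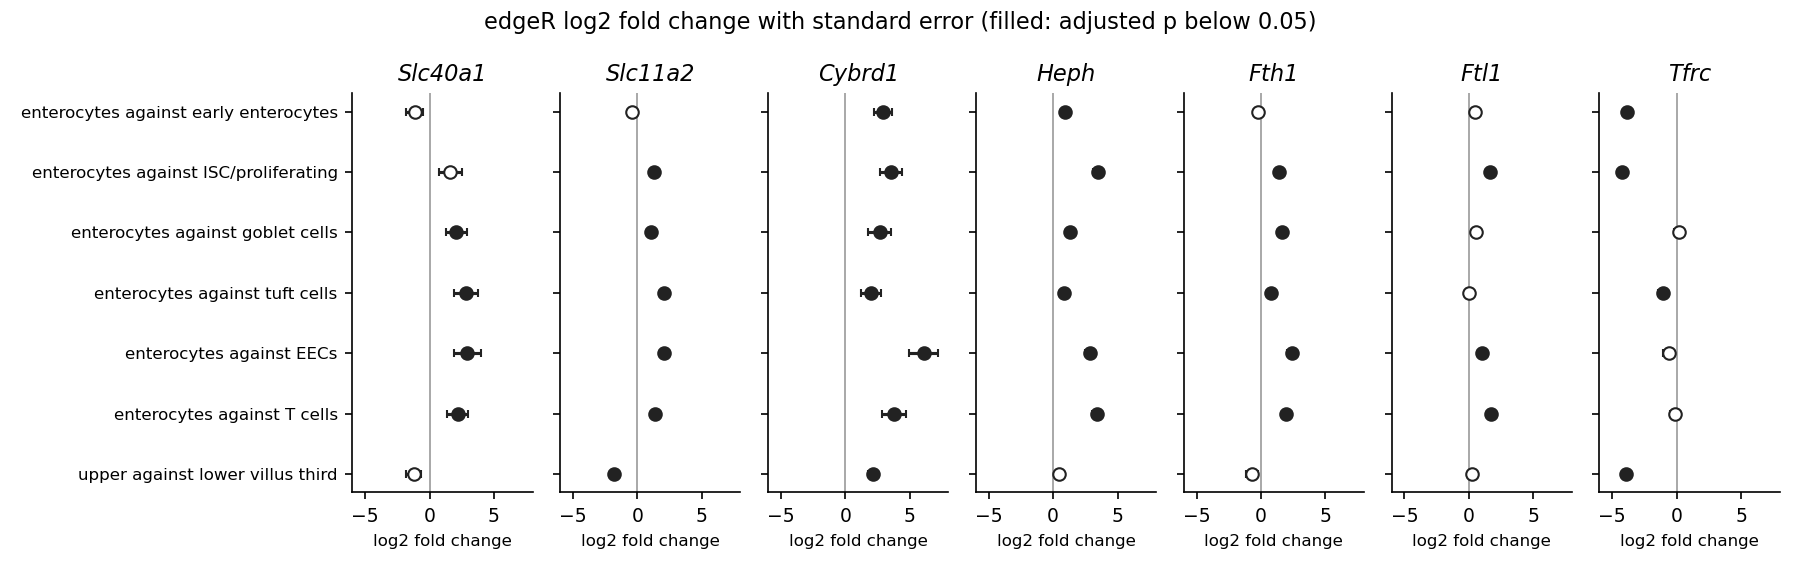
Log2 fold change with its standard error from edgeR for the 7 genes, 1 panel each, in enterocytes against 6 other classes and in the villus top against the villus bottom, with filled points where the adjusted p is below 0.05. Tfrc lies left of 0 against early enterocytes and crypt cells, and Slc40a1 and Cybrd1, the latter tested only through its duodenal sums, have the widest errors.

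Within the duodenum the order of the named classes, lymphocytes and classes under 10 cells left out, differed between the genes. Slc40a1 ran from enterocytes (3.79) over early enterocytes (1.95) to tuft cells and crypt cells (both 0.473), goblet cells (0.411) and EECs (0.203), and the intervals of tuft, crypt and goblet cells overlapped. Slc11a2 was highest in early enterocytes (0.937), followed by enterocytes (0.752), crypt cells (0.315), goblet cells (0.268), tuft cells (0.186) and EECs (0.139), and the last 4 overlapped with their neighbours. The duodenal T cells left out of this order stood at 1.41 for Slc40a1 and 0.396 for Slc11a2. Both values exceed those of tuft, crypt, goblet and enteroendocrine cells, and the part of background RNA in these lower ranks was not tested. Heph was highest in enterocytes (2.26) and tuft cells (2.00), whose intervals overlapped, before early enterocytes (1.04) and goblet cells (0.947), which overlapped too. Fth1 was highest in early enterocytes (175) and enterocytes (166), then tuft cells (94.96) and crypt cells (59.8).

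**Figure D4:**
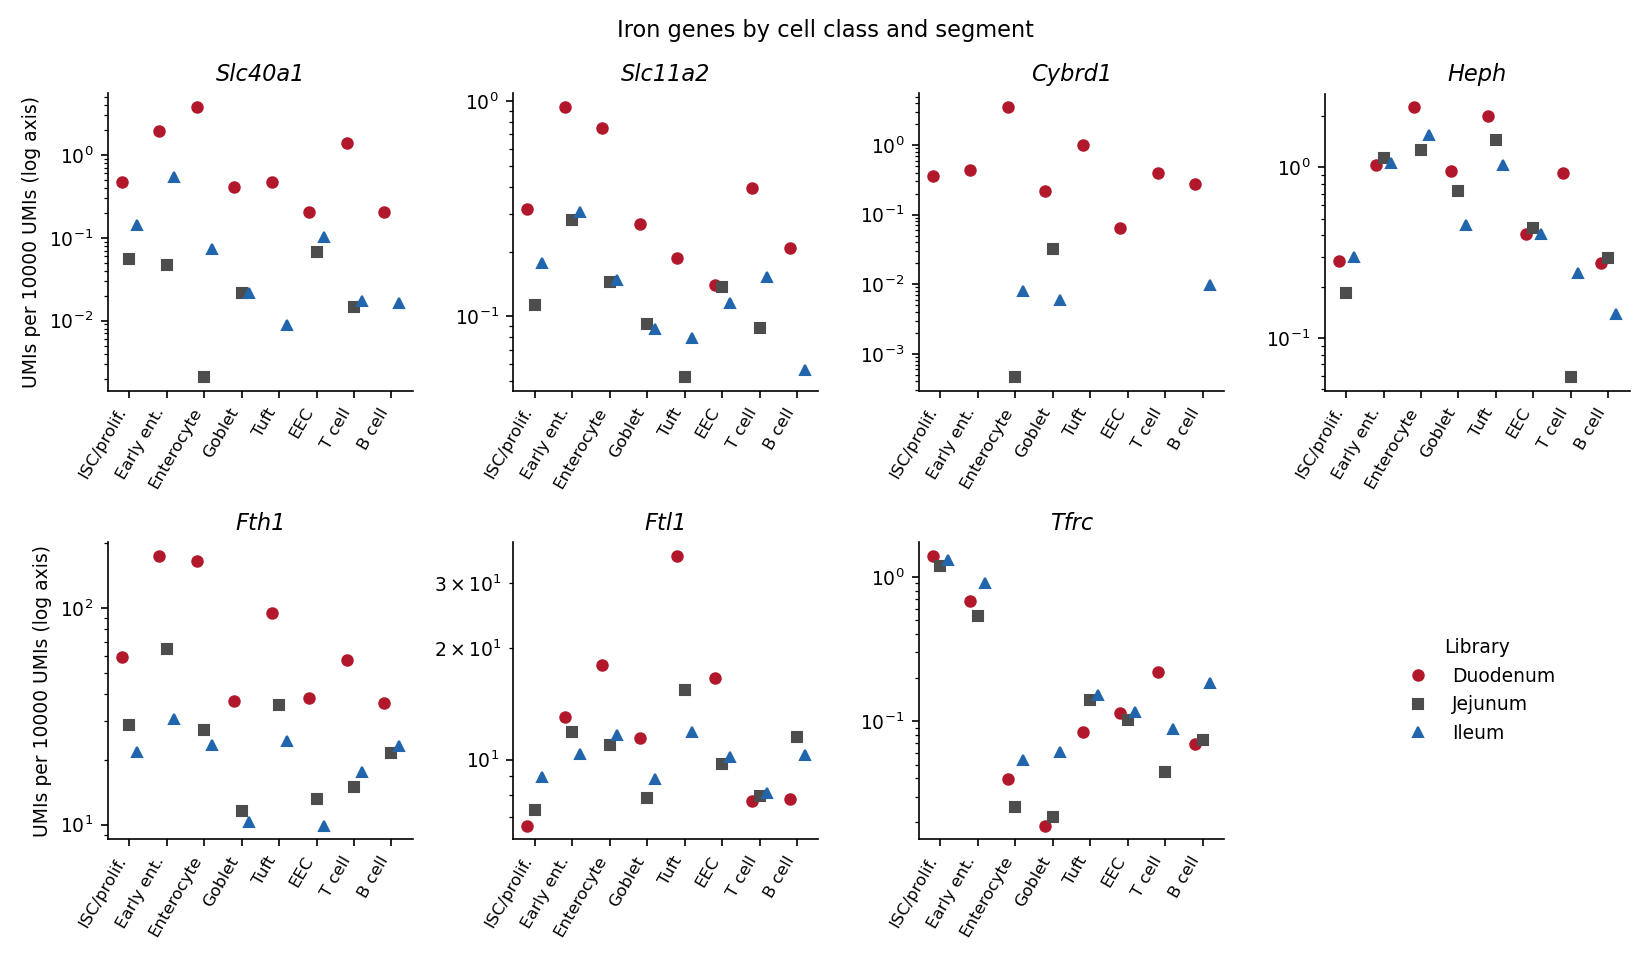
UMIs per 10000 UMIs (log axes, not shared) of the 7 genes in 8 cell classes (ISC/prolif., stem and proliferating crypt cells, and early ent., early enterocytes), 1 point per library, with sums at 0 not drawn. Slc40a1 and Cybrd1 lie highest in the duodenum in each class, and Tfrc is highest in crypt cells and next in early enterocytes in all 3 libraries.

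Along the villus the genes peaked at different heights. Enterocytes and early enterocytes of a library were ranked by a score, 7 genes of the villus tip minus 8 of the bottom, none of them an iron gene, and divided into 5 bins of equal cell number from bottom to tip. In the duodenum, Slc11a2 was 0.994, 1.16, 0.779, 0.455 and 0.141 from bin 1 to bin 5, and Cybrd1 was 0.954, 2.65, 3.19, 3.47 and 6.90. The importer was thus highest in the lower villus and the reductase at the tip. Slc40a1, with 2.67, 4.43, 3.99, 3.69 and 2.50, was highest in bin 2 like the importer, and Heph varied less, with 1.44, 2.27, 2.38, 2.46 and 1.90.

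Fth1 fell from 202 in bin 1 over 198, 171 and 137 to 75.7 in bin 5 of the duodenum. In the jejunum it fell from 62.8 to 10.3, and in the ileum it was 28.7 in bin 1, 20.8 in bin 3 and 27.4 in bin 5, with no such fall. Ileal Slc40a1 was 0.423 in bin 1 and at most 0.0757 in the others. Tfrc was 0.441, 0.321 and 0.678 in bin 1 of duodenum, jejunum and ileum and 0.0213, 0.0112 and 0.0294 in bin 5.

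Depth and class moved with the bins. The median UMIs per cell fell from 18614 in bin 1 to 8456 in bin 5 of the duodenum, and early enterocytes made up 53.3%, 41.7% and 49.4% of bin 1 in the 3 segments. The score is continuous, and 500, 430 and 518 cells lay within 0.1 of a border of the top and bottom groups tested next.

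The villus top was tested against the villus bottom (the third of cells with the highest and with the lowest score) in the same way, over 11617 genes. Of the 6 genes 0 were higher at the top, beside 23.1% of all genes, and Slc11a2 and Tfrc were lower, beside 27.2%. Cybrd1, again tested only through the duodenal sums, was 5.41 at the top and 1.51 at the bottom of the duodenum. Slc11a2 was lower in 3 of 3 libraries, with 0.244 against 1.099, 0.0479 against 0.266 and 0.0609 against 0.288, by -1.83 (SE 0.18, edgeR adjusted p = 0.00109). Tfrc was lower in 3 of 3 libraries by -3.93 (SE 0.22, edgeR adjusted p = 0.000565).

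Fth1, at 96.1 (top) and 202 (bottom) for duodenum, 11.6 and 56.4 for jejunum and 25.5 and 27.3 for ileum, did not pass the test (log2 -0.69, edgeR adjusted p = 0.24), and it passed without the ileum (log2 -1.26, edgeR adjusted p = 0.0243). Slc40a1 (log2 -1.23, edgeR adjusted p = 0.116) passed without the duodenum (log2 -2.30, edgeR adjusted p = 0.00416). Heph (log2 0.45) and Ftl1 (log2 0.25) did not pass, and both turned negative without a normalization factor.

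**Figure D5:**
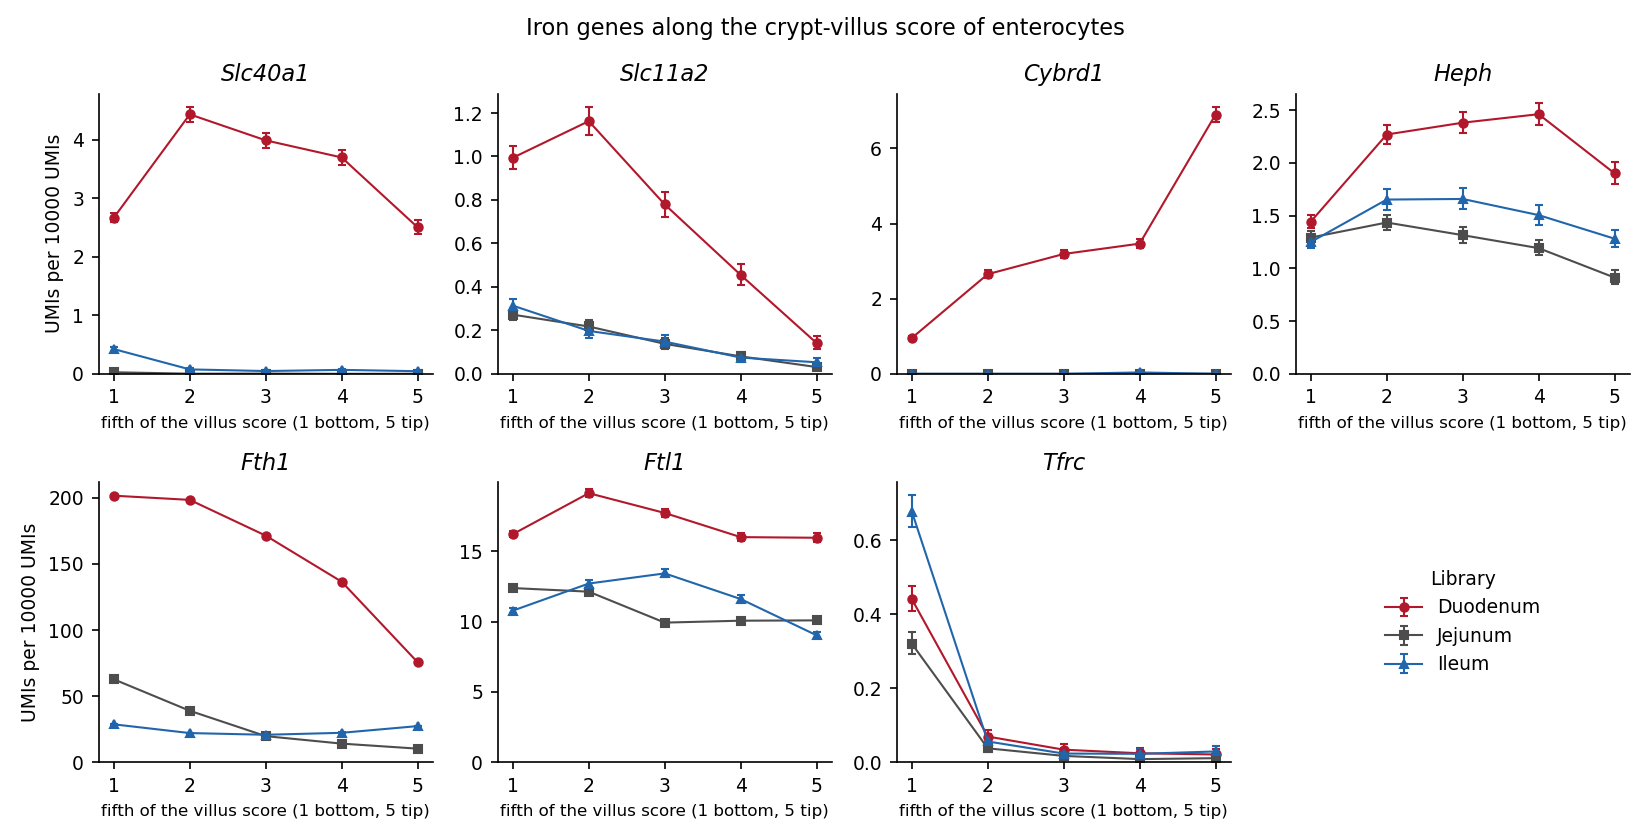
UMIs per 10000 UMIs of the 7 genes in 5 bins of the villus score (equal numbers of cells of a library, 1 at the bottom and 5 at the tip) for the 3 libraries, with exact 95% Poisson intervals. In the duodenum Slc11a2 peaks at 1.16 in bin 2 and Cybrd1 at 6.90 in bin 5, and Tfrc is confined to bin 1 at levels above 0.1.

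Of 54 other iron genes in 6 lists, 53 were in the files, and 36 had at least 100 UMIs in enterocytes. In the duodenum 6 of these 36 were at least 2-fold higher and 5 lower than in the jejunum, and 8 were higher and 4 lower than in the ileum. Among genes that reached a level of 0.1 in either segment, 7.96% were higher and 4.52% lower against the jejunum. Against the ileum the shares were 13.4% and 11.4%. The iron genes were held to 100 UMIs instead of this level, so their counts and these shares rest on unlike thresholds. The median log2 ratio of the 36 iron genes was 0.22 against the jejunum and 0.46 against the ileum, beside 0.20 and 0.013 over all genes. The largest excess among genes of iron sensing and ferritin turnover was that of Ncoa4, the receptor that delivers ferritin to lysosomes, with 4.81, 0.926 and 0.569 in duodenum, jejunum and ileum. Ireb2, which encodes an iron regulatory protein, stood at 1.49, 0.780 and 0.410. Bdh2, an enzyme linked to siderophore synthesis, was instead highest in the jejunum, with 0.0442, 0.371 and 0.0392.

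Genes of haem handling went both ways. Slc46a1, a folate transporter also described as a haem carrier, stood at 2.86, 1.05 and 0.161, and Hmox1, which breaks down haem, at 0.0547, 0.00856 and 0.00622. Flvcr2 was nearly limited to the other segments, with 0.00225, 0.0768 and 0.160, and Abcg2 was highest in the ileum, with 1.52, 1.53 and 3.51. Of the mitochondrial genes, Slc25a37 (mitoferrin 1) was lowest in the duodenum, with 0.143, 0.389 and 0.943, and Glrx5 (0.343, 0.190 and 0.122) was higher there than in the ileum.

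Among the remaining lists, the oxygen-sensing gene Epas1, which encodes HIF-2alpha, stood at 0.427, 0.178 and 0.223, Egln3 at 0.112, 0.265 and 0.333, and Hif1a at 0.585, 0.938 and 0.451. Slc39a14, a zinc transporter that also carries iron, stood at 1.22, 0.605 and 0.4995, and the endolysosomal channel Mcoln1 at 0.185, 0.0782 and 0.127. Trf, which encodes transferrin, was low, with 0.00300, 0.0301 and 0.00373. No gene of the export and hepcidin list reached 100 UMIs.

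Against early enterocytes, 44 of the other iron genes were tested, with 15 higher in enterocytes and 12 lower. Of 7 genes of iron sensing and ferritin turnover 4 were higher and 0 lower, led by Bdh2 (log2 3.34, edgeR adjusted p = 9.05e-05) and Ncoa4 (log2 1.76, edgeR adjusted p = 1.34e-05). Of 7 oxygen-sensing genes 5 were higher and 0 lower, led by Hif1a (2.01) and Epas1 (1.67), both in 3 of 3 libraries. Of 8 mitochondrial genes 0 were higher and 4 lower, among them Glrx5 (-2.01), which acts in iron-sulfur cluster assembly. Haem genes split into 4 higher (Hmox1 and Flvcr2, both 2.89) and 4 lower (Hebp1 -3.41 and Slc48a1 -1.60) of 12. Of 8 tested genes of uptake 2 were higher (Trf 3.75 and Mcoln1 0.82) and 3 lower, led by the metalloreductases Steap3 (-4.62) and Steap1 (-3.54). Hfe was lower (-1.59).

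Between villus top and bottom, 41 of them were tested, with 12 higher at the top and 13 lower. Iron sensing (4 of 7 higher, led by Bdh2 at 4.98 and Ncoa4 at 1.51) and oxygen sensing (4 of 7 higher, led by Hif1a at 2.55 and Epas1 at 1.14) again had no gene called lower. Mitochondrial genes had 0 higher and 5 of 8 lower (among them Glrx5 at -2.71). Of 12 haem genes 4 were higher (Hmox1 3.85 and Flvcr2 2.39) and 5 lower (Hebp1 -3.06 and Slc48a1 -1.75), of 6 uptake genes 2 were lower (Steap3 -4.31 and Steap2 -3.81), and Hfe was lower (-1.81). These counts are descriptions of the lists, read beside the shares of all genes given above.

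In the duodenal cells grouped by Slc40a1, 2 of 33 other iron genes with enough UMIs were at least 2-fold higher in cells with Slc40a1 and 3 were lower, compared with 180 and 195 of 9007 genes. Ncoa4 was 7.35 against 2.09 (3.52-fold) and Hmox1 0.0669 against 0.0302 (2.22-fold). Lower were Slc25a37 (0.0534 against 0.240), Hif1a (0.260 against 0.912) and Bdh2 (0.0235 against 0.0641). As for the members, no test was made.

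Over 29 sums of library and class, the genes most like Slc40a1 by Pearson's r of log2 levels, out of 11604 genes, were Slc11a2 (0.886), the calcium-binding protein gene S100g (0.863) and Slc37a2 (0.847). For Slc11a2 they were Slc40a1, Fuom (0.828) and Lpar1 (0.815). Cybrd1 was most like Akp3 (0.967), an intestinal alkaline phosphatase gene, Meis2 (0.933) and Sult6b2 (0.926), and Heph most like Slc22a18 (0.902), C77080 (0.896) and the enterocyte gene Vil1 (0.890). The sums share libraries and depth, and the values are descriptions.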

How the data were processed

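Single-cell RNA libraries were made with 3′ droplet chemistry, and per the labels and submitters' processing notes the reads were processed by the authors with Cell Ranger 3.0.2 on mm10. The deposited values are UMI counts per gene and barcode. Barcodes were kept at 800 to 50000 UMIs, 200 to 6000 genes and a mitochondrial share of at most 40%. Cells were clustered with Seurat 5.3.0 (2000 variable genes without the iron genes, 30 components, resolution 0.8) and named from marker lists. Scrublet called 0, 0 and 146 (1.81%) doublets in duodenum, jejunum and ileum, which means that it did not work in the first 2, and no cell was removed as a doublet. The libraries shared 4, 12 and 5 kept barcodes pairwise (duodenum and jejunum, jejunum and ileum, duodenum and ileum).

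UMIs were summed per library and class (at least 10 cells) and tested with edgeR 4.0.16 (quasi-likelihood, TMM, library as a block, Benjamini-Hochberg threshold of 0.05), and the scripts were tested on simulated data. The share of all genes at least 2-fold apart between segments covers genes with a level of at least 0.1 in either segment, with 0.01 added to both levels. Alternatives included DESeq2 1.42.0 and other normalizations, filters and cell sets. Of each list of other iron genes, up to 2 genes per direction with the largest change past the threshold were named. An item that this rule would name is not reported here. The members and lists were chosen with earlier results of these data known.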

Additional observations from a re-analysis of the deposited data

Results flagged for a closer look

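The exporter differed between enterocytes and early enterocytes in opposite directions by segment. The log2 ratio of Slc40a1 levels in enterocytes over early enterocytes was 0.961 (0.890 to 1.033) for duodenum, -4.48 (-5.717 to -3.403) for jejunum and -2.902 (-3.130 to -2.678) for ileum, with exact intervals for counting error only. The jejunal value rests on 9 and 37 UMIs.

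The ferritin light chain gene Ftl1 had log2 ratios of 0.467, -0.118 and 0.176 (duodenum, jejunum, ileum). With 1 library per segment neither difference between segments was tested, and both stand out only because the directions were opposite.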

How the results depend on the processing

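Of 49 tests of the 7 genes 35 were called, 7 of them of Cybrd1 through its duodenal sums, and 12 of the 35 under every alternative run: Tfrc against early enterocytes, crypt cells and the villus bottom, Heph against crypt cells, EECs and T cells, Ftl1 against crypt cells and T cells, Slc11a2 against tuft cells and EECs, and Fth1 against EECs and T cells. The shares of all genes called are given with each comparison above. No share of all genes called under every alternative was taken, so these counts describe the 7 genes only. Without a normalization factor the median of all genes moved by -0.90 (T cells) to -0.044 (goblet cells) on the log2 scale. Values that changed sign against early enterocytes were Slc40a1 without the library block (0.87) and Fth1 with at most 20% mitochondrial UMIs (0.053) and without 1 library (-0.51 to 0.082, the latter without the jejunum). Slc40a1 changed sign without the duodenum against crypt cells (-0.78 to 2.50 without 1 library) and EECs (-0.36 to 3.77), and Cybrd1 against goblet cells with DESeq2 (-0.20). Tfrc against goblet cells was -0.030 with RLE size factors, -0.048 with at most 20% mitochondrial UMIs and -0.10 to 0.64 without 1 library, and against T cells 0.45 at resolution 1.2 and -0.76 to 0.17 without 1 library, with the sign changed without the duodenum in both. Ftl1 against tuft cells was -0.19 with RLE size factors and with DESeq2, -0.59 without a normalization factor, -0.071 without the highest doublet scores and -0.28 to 0.44 without 1 library (negative without the jejunum or the ileum). Along the villus, Heph (-0.017) and Ftl1 (-0.21) changed sign without a normalization factor.

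The genes called numbered 5200 against early enterocytes (2945 to 4950 without 1 library, lowest without the jejunum), 5019 against goblet cells (3270 to 4599, lowest without the jejunum) and 5844 along the villus (3689 to 5877 without 1 library, 3211 without the block). Of the 7 genes, Cybrd1 included here, 2 were called higher against early enterocytes, and 1 without a normalization factor, with DESeq2 or without the highest doublet scores, 0 without the block and 0 to 2 without 1 library. The 1 called lower became 2 without a normalization factor or low-gene filter and 1 to 2 without 1 library. Against crypt cells the 5 higher became 3 without a normalization factor and 2 without the block, against goblet cells 5 became 1 without the block, 3 with DESeq2 and 2 to 5 without 1 library. Against tuft cells 5 became 2 with RLE size factors, 1 without a normalization factor, without the block or with DESeq2, 3 without the highest doublet scores and 2 to 4 without 1 library, and the 1 lower became 0 without the block, with at most 20% mitochondrial UMIs or at resolution 1.2, and 0 to 1 without 1 library. Against EECs and T cells 0 lower became 1 without a normalization factor. Along the villus the 1 higher became 0 without the block, 2 with at most 20% mitochondrial UMIs and 0 to 1 without 1 library, and the 2 lower became 1 without the block. The causes were not tested.

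By segment, 7 genes instead of 4 were higher in the duodenum than in the jejunum at 1.5-fold, for which no share of all genes was taken. With the T cell level subtracted, 1 instead of 0 was higher and 1 instead of 3 lower in the jejunum than in the ileum, and 1 was lower with at most 20% mitochondrial UMIs, where Cybrd1 had 0 jejunal UMIs and gave no ratio. Leaving out barcodes that libraries share was chosen after seeing the data. No paired analysis was possible because each segment has 1 library, and the library block is part of the main design. Counts of 2 to 37 UMIs limit the jejunal values of Slc40a1 and Cybrd1.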

Other observations

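The 26 macrophages (1, 6 and 19 cells in duodenum, jejunum and ileum) carried ferritin mRNA at levels above those of enterocytes in the jejunum and ileum. Fth1 stood at 77.7 in the 6 jejunal and 138 in the 19 ileal macrophages, and Ftl1 at 71.1 and 71.5. In these cells the light chain thus reached a level that no epithelial class of the same libraries had. Slc40a1, by which macrophages release recycled iron, was found with 3 and 11 UMIs (0.423 and 0.513), and Cybrd1 with 0 UMIs.

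A cluster left unnamed, led by Gm26917, held 135, 232 and 826 cells. It repeated the segment order of the enterocytes, with Slc40a1 at 2.97, 0.0206 and 0.223 and Fth1 at 71.5, 10.7 and 8.26 in duodenum, jejunum and ileum. Slc11a2 stood at 2.11, 0.288 and 0.318 in it.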
